A study of Zea mays with 27 samples.

Results

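The 8 probes of 3 water and solute channel genes of maize, PIP1-3, PIP2-6 and Lsi6, were followed over 27 cDNA microarrays. They are the 8 probes that the platform's gene table assigns to gene LOC541886 (PIP1-3, 6 probes), LOC541891 (PIP2-6, 1 probe) or LOC542497 (Lsi6, 1 probe) and to no other gene. They were taken from 1607 probes with 1 gene, for 532 genes, and 18303 probes with values. The genes were selected on the spread of their values over these same arrays, each holding 1 of the widest aquaporin probes, so widths below are descriptions and were not tested. A further probe, assigned to both PIP1-3 and PIP1-2 (LOC541779), lies outside that choice and is called the shared probe. The name PIP1-4 is a synonym of LOC541886 in RefSeq, so these probes do not separate PIP1-3 from PIP1-4. RefSeq likewise gives NIP2-3 as a synonym of LOC542497, and the name Lsi6 is kept here. Probe sequences were not used here, so whether a cDNA probe also bound transcripts of a related gene was not tested, either for probes of PIP1-3 that disagree or for probes of different genes that vary alike.

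The study compared the inbred lines B73 and Mo17 with their F1 hybrid, for which Mo17 was the seed parent. RNA came from above-ground tissue of seedlings harvested at 14 days, with 6 seedlings pooled per genotype and replication, so values describe pools and not plants. Of the replications, 9 were kept, each with 3 two-colour arrays (Cy3 and Cy5) that paired the genotypes in a loop with alternated dyes. The labels name the genotype of 1 channel on 1 array (F1 in Cy3 on S1), so the arrays, S1 to S27, carry no groups here and no genotype is compared. A ratio gives no level, so neither the abundance of these transcripts nor the leaf identity of the tissue could be checked against markers. In whole shoots, fewer cells that express a channel and less RNA per cell cannot be told apart.

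Aquaporins are membrane channels that let water or small uncharged solutes pass. Plasma membrane intrinsic proteins (PIPs) fall into the PIP1 and PIP2 subgroups. In frog oocytes, maize PIP2 proteins raise water permeability by themselves, whereas most PIP1 proteins do so only when a PIP2 is present. Both kinds assemble into mixed tetramers, and PIP2 partners help PIP1 proteins to reach the plasma membrane. Lsi6 belongs to the NIP branch of the family and carries silicic acid. In rice it moves silicon out of the xylem in leaf sheaths and blades.

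Each value below is the log2 ratio of the channels minus the array's median, and spread is its 90th minus its 10th percentile over the 27 arrays. The deposited ratios were read as natural logs and converted, as detailed under the processing. Because the numerator channel is not stated, a value is only above or below its array's median. Arrays also differed in width, with an interquartile range over probes from 0.40 on S9 to 1.57 on S19. The share of probes beyond 2-fold ran from 4.64% on S17 to 39.1% on S19. Counts of arrays past a distance of 1 were not adjusted for this, so wide arrays weigh more in them. Array S27 stood apart through extreme values of 3 member probes, so correlations are given with and without it. Arrays S1 to S15 each had 1 value that many probes repeated (2.47% to 13.9% of them), against at most 0.475% on arrays S16 to S27, and spreads are also given for either set. Arrays of a loop share RNA pools, so the 27 are not independent and no p is attached to any correlation.

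The 6 probes of PIP1-3 did not show a common width. The 6 are called a to f in the order of the array (spots 5135, 10426, 11811, 14461, 15497 and 17750). Probe d had a spread of 3.31, and 5.60% of probes with 1 gene were at least as wide. Probe f had 2.54, and 12.01% were at least as wide. The other 4 had 0.91 (e), 1.01 (b), 1.10 (a) and 1.35 (c), on both sides of the median of 1.17 over all probes with 1 gene. The shared probe had 0.99.

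Probe d of PIP1-3 ran from -2.78 on S16 through a median of -0.22 to 4.62 on S20. It lay at least 1 above the array's median on 4 arrays, S11 (2.17), S13 (1.27), S20 and S22 (4.17). It lay at least 1 below on 6 arrays, S3, S14, S15, S16, S17 and S26. The wide range thus came from both sides of the median. On S20 it ranked 256 from the top of 18303 probes, and on S22 it ranked 175. Its spread came to 2.72 for S1 to S15 and 5.17 for S16 to S27, and it was never at a repeated value.

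Probe f of PIP1-3 ran from -5.89 on S7 to 1.72 on S1, with a median of -0.26. The 2 lowest values, on S7 and on S3 (-5.53), stood far from the next lowest, -1.77 on S10. On S7 the probe ranked 8 from the bottom of the array. Its spread came to 4.66 for S1 to S15 and 1.27 for S16 to S27, so its width lay in the first set.

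Probe b of PIP1-3 lay within 0.5 of the array's median on 20 of 27 arrays and more than 1 from it on S27 alone. It stood at -13.95 on S27, where it ranked 17 from the bottom. The next lowest value was -0.96 on S20, and the highest was 0.82 on S3. Probe e lay within 0.5 on 22 arrays, and on 10 of them it held the array's repeated value. Its extremes were -0.84 on S21 and 2.93, again on S27, where it ranked 634 from the top.

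Probe a of PIP1-3 ran from -0.40 on S20 to 1.15 on S23, and probe c from -2.59 on S19 to 1.02 on S27. Both lay within 0.5 of the median on most arrays, 21 for a and 17 for c. The low values of c were S19 and S13 (-1.62).

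The PIP2-6 probe (spot 19073) varied on more arrays than any of the PIP1-3 probes. Its values ran from -3.34 on S15 through a median of -0.08 to 2.58 on S19. It lay at least 1 from the array's median on 14 of 27 arrays, against 10 for PIP1-3 d and 7 for PIP1-3 f. Of the 14 arrays, 9 were above (S4, S7, S11, S13, S19, S20, S21, S22 and S23) and 5 below (S2, S3, S5, S6 and S15). Its interquartile range of 1.71 was the widest of the 8 probes. The spread was 3.27 over all arrays, 3.64 over S1 to S15 and 2.68 over S16 to S27.

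The Lsi6 probe (spot 6396) differed in shape, because it moved to 1 side only. It ran from -0.24 on S23 through a median of 0.38 to 7.25 on S27. It lay above the array's median on 21 of 27 arrays and below on 5, and 1.56% of probes with 1 gene were above on at least as many arrays. It reached 1 or more above on 6 arrays, S3 (1.35), S6 (4.05), S8 (1.23), S12 (2.69), S15 (4.21) and S27, and was never 1 below. On S15 it ranked 90 from the top, against 266 on S27, 390 on S12 and 474 on S6. Its spread of 3.29 rested on those arrays, since its interquartile range was 0.79. The spread was 2.07 without S6, without S15 or without S27, each left out alone, and it was 3.49 over S1 to S15 and 1.06 over S16 to S27.

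**Figure D1:**
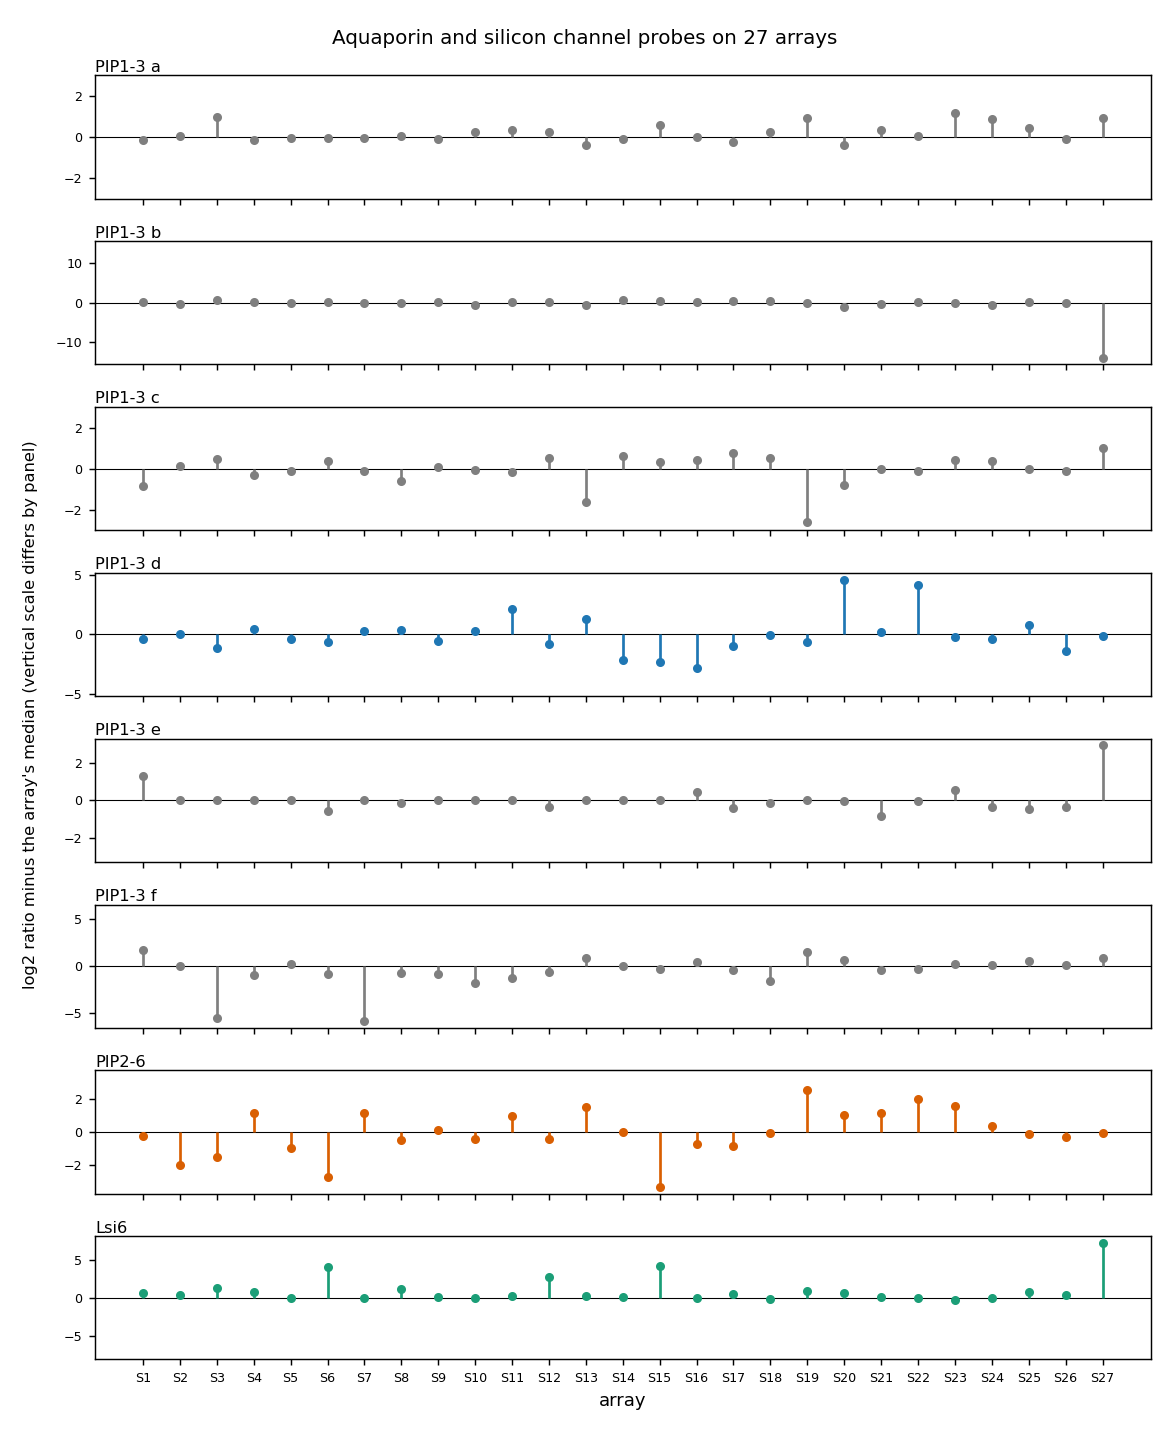
Value of each of the 8 probes (log2 ratio minus the array's median, vertical scale differing by panel) on arrays S1 to S27, with 1 point per array and a line to the array's median. PIP1-3 d and PIP2-6 move to both sides, Lsi6 only upward with its highest values on S27 (7.25), S15 (4.21) and S6 (4.05), and PIP1-3 b is within 1 of the median except on S27 (-13.95).

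Of the 8 member probes, 7 had a spread of at least 1, a 2-fold distance. The same held for 65% of probes with 1 gene and for 79.2% of all probes, and since width chose the genes, nothing is read from this count. PIP1-3 e was the exception at 0.91. Its spread was 1.36 with repeated values set to missing and 1.37 with blocks of spots centred, and it was 0.28 over S1 to S15 and 1.01 over S16 to S27. The count was 8 with repeated values missing, 8 over S16 to S27 and 5 over S1 to S15. PIP1-3 b, at 1.01, fell to 0.99 without S27.

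Probes of PIP1-3 did not vary together over arrays. Over their 15 pairs the mean Pearson correlation was -0.117, and 5 pairs were above 0. Without S27 the mean was -0.0826 with 6 pairs above 0, and by Spearman ranks it was -0.0670 over all arrays. For the other 258 genes with several probes, the median of the same mean was 0.0857, and 36 of them (14.0%) were at or below PIP1-3. Among the 107 other genes with at least 4 probes, the median mean of Spearman correlations was 0.139, and 5 genes were at or below PIP1-3. By Pearson the median over these 107 was 0.119, and LOC542115 (glx1, 4 probes) was below PIP1-3 at -0.182. Agreement between probes of a gene was thus generally weak on these arrays, and that of PIP1-3 lay in the lower part.

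A closer look at the PIP1-3 pairs showed 2 probes that moved together once S27 was left out, and another that opposed them by ranks. Probes b and c had r = -0.219 over all arrays, which turned to 0.487 without S27 (rho = 0.441 over all arrays). The shared probe had r = 0.725 with c, and with b it had -0.103 over all arrays and 0.623 without S27. Probe d opposed them by ranks, with rho = -0.553 to c and -0.518 to b. The Pearson values were weaker, at -0.325 to c and -0.0609 to b (-0.335 and -0.541 without S27). With the first component of the arrays, described further on, removed from each probe, the values over all 27 arrays were 0.0245 and -0.0228. As d with b was already at -0.0609 over these arrays, the removal cannot show what becomes of the -0.541 without S27. On the 4 arrays where d was at least 1 above the array's median, c was below it, from -1.62 to -0.11. On the 6 arrays where d was at least 1 below, c was above on 5. Over all 27 arrays, c was above on 13 and below on 14. The correlation of -0.819 between b and e was that of 1 array, as it was 0.0115 without S27. Of pairs of probes of different genes, 4.9% had r of at least 0.5 and 2.47% of at most -0.5. The 15 pairs of PIP1-3 held 0 and 1, too few to differ from those shares, and the 1 was b with e. By ranks, the 15 pairs held 2 with rho of at most -0.5, those of d with b and c. The share over pairs of different genes was 2.46% by ranks, and the 2 pairs have probe d in common.

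The common profile of PIP1-3 was flatter than any of its probes. Taken as the median over the 6 probes, each first set to its own median over arrays, the profile of PIP1-3 had a spread of 0.45. It ran from -0.29 on S6 to 0.95 on S27. The single probes of PIP2-6 and Lsi6 serve as the profiles of those genes and carry no such averaging, so widths of profiles cannot be set against each other.

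**Figure D2:**
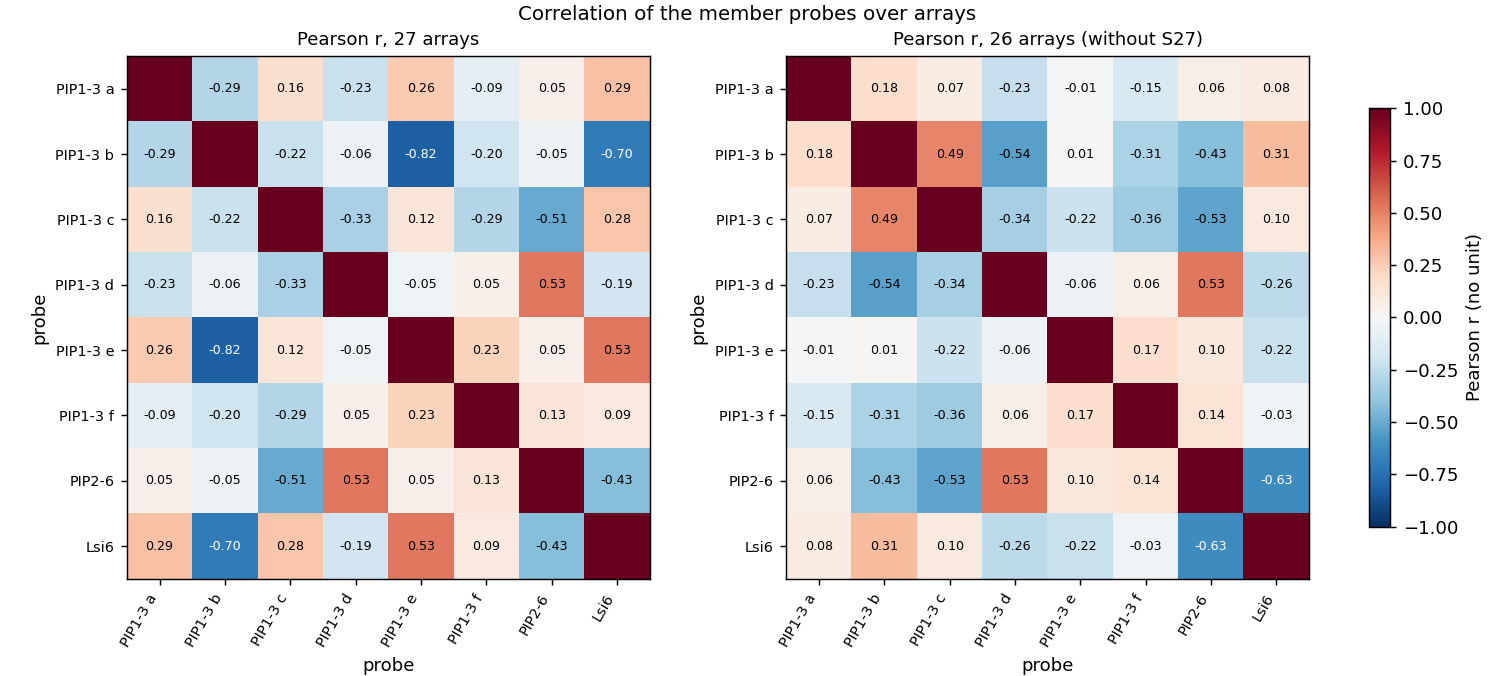
Pearson correlation between each pair of the 8 probes over 27 arrays (left) and over the 26 arrays without S27 (right), with the value in each cell and colour from blue (-1) to red (1). The negative values of PIP1-3 b with e (-0.819) and with Lsi6 (-0.698) vanish without S27, while PIP1-3 d and PIP2-6 keep 0.525.

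Whether the PIP1 and PIP2 member varied together depended on the probe of PIP1-3. The gene profiles of PIP1-3 and PIP2-6 had r = -0.0592 and rho = -0.0846. Of the 6 PIP1-3 probes, 4 correlated positively with PIP2-6 and 2 negatively, with a range from -0.507 (c) to 0.525 (d). Over pairs of probes of different genes on these arrays, r had a median of 0.00933 and 5th and 95th percentiles of -0.425 and 0.497. The values for c and d, the lowest and highest of the 6, lay just outside these percentiles. By ranks, c at -0.407 lay inside the 5th percentile of -0.426, and d at 0.522 lay above the 95th of 0.473. Without S13 and S19, the 2 arrays farthest from the median of c, r of c with PIP2-6 was -0.283.

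PIP1-3 d and PIP2-6 moved to the same side on 18 of 27 arrays and to opposite sides on 8. The correlation was 0.525 with r and 0.522 with rho, and 0.465 without S20 and S22, the 2 arrays farthest from the median of d. It came to 0.629 over S1 to S15 and 0.497 over S16 to S27. On each of the 4 arrays where d was at least 1 above the array's median, PIP2-6 was too, with 1.52 on S13, 1.05 on S20, 2.04 on S22 and a value just past 1 on S11. On the 6 arrays where d was at least 1 below, PIP2-6 was below on 5 and at the repeated value of the array on S14, and it was at least 1 below on S3 and S15. Over all 27 arrays, PIP2-6 was above on 11 and below on 15. The reverse was looser, since d reached 1 on 4 of the 9 arrays where PIP2-6 did, and was -0.61 on S19, the array with the highest PIP2-6 value.

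Lsi6 varied apart from PIP2-6. Their correlation was -0.429 over all arrays (rho = -0.377) and -0.626 without S27. On each of the 6 arrays where Lsi6 was at least 1 above the array's median, PIP2-6 was below it, from -3.34 to -0.08. These included S15 and S6, where Lsi6 stood at 4.21 and 4.05 and PIP2-6 at its lowest values of -3.34 and -2.75. Whether high PIP2-6 went with low Lsi6 depended on the reference, since the median of Lsi6 over arrays was 0.38. On the 9 arrays where PIP2-6 was at least 1 above, Lsi6 was above on 6 and below on 2, from -0.24 to 0.87. Set to its own median, Lsi6 was lower on S7, S11, S13, S21, S22 and S23, from -0.62 to -0.12. It was higher on S4, S19 and S20, from 0.23 to 0.49. On the 5 arrays where PIP2-6 was at least 1 below, Lsi6 was above on 4. Over all 27 arrays, Lsi6 was above on 21 and PIP2-6 was below on 15, so nothing is read from the 4. The relation rested largely on S15 and S6, because r was -0.141 without them. It came to -0.711 over S1 to S15 and -0.162 over S16 to S27. Of pairs of probes of different genes, 15.5% had r of at least 0.4 in size, and 14.6% had rho of that size.

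Lsi6 had no settled relation to PIP1-3. The gene profiles had r = 0.442, but rho was -0.215, and r was -0.181 without S27, where both profiles had their highest value. Single probes of PIP1-3 ranged from -0.698 (b) to 0.526 (e) over all arrays and from -0.261 (d) to 0.314 (b) without S27. By ranks, all 6 lay between -0.156 and 0.125. The apparent links of b and e to Lsi6 were thus those of S27, on which b was at -13.95, e at 2.93 and Lsi6 at 7.25.

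**Figure D3:**
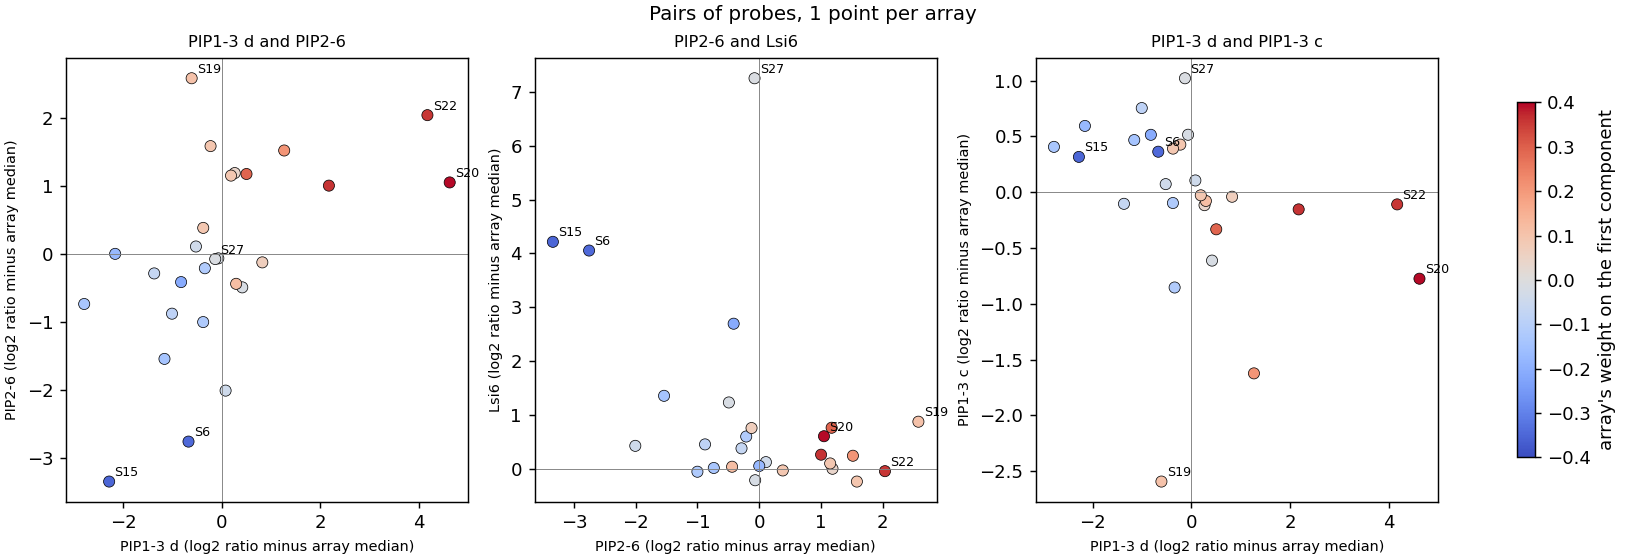
Value of 1 probe against another (both log2 ratio minus the array's median), 1 point per array, coloured by the array's weight on the first component of all other probes, with 6 arrays named. PIP1-3 d and PIP2-6 lie mostly on the same side (r = 0.525), Lsi6 is at least 1 above only where PIP2-6 is below 0 (r = -0.429), and PIP1-3 c is below 0 on the 4 arrays where PIP1-3 d is highest.

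PIP1-3 d and PIP2-6 also followed the main pattern shared by the arrays. The first principal component of arrays, computed from all probes except aquaporins, held 12.1% of the variance. Its sign is arbitrary and was set positive on S20, where its weight was 0.396. The next largest weights were those of S11 (0.361), S22 (0.357), S15 (-0.352) and S6 (-0.345). PIP1-3 d correlated with it at 0.826 and PIP2-6 at 0.789, and rank correlations were 0.833 and 0.767. Of probes with 1 gene, 4.73% reached 0.75, counted on the positive side only. Probes were not scaled to equal width, so wide probes weigh more in the component. Since the members were selected on width, that share is not a matched background. When the component was removed, the correlation of PIP1-3 d with PIP2-6 changed from 0.525 to -0.365. The other members followed it less, with -0.403 for Lsi6, -0.409 for PIP1-3 c and between -0.0752 and 0.0762 for PIP1-3 a, b, e and f. By ranks, b stood at -0.617 and c at -0.543. After removal, PIP2-6 and Lsi6 had r = -0.199, and what the component stands for was not tested.

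**Figure D4:**
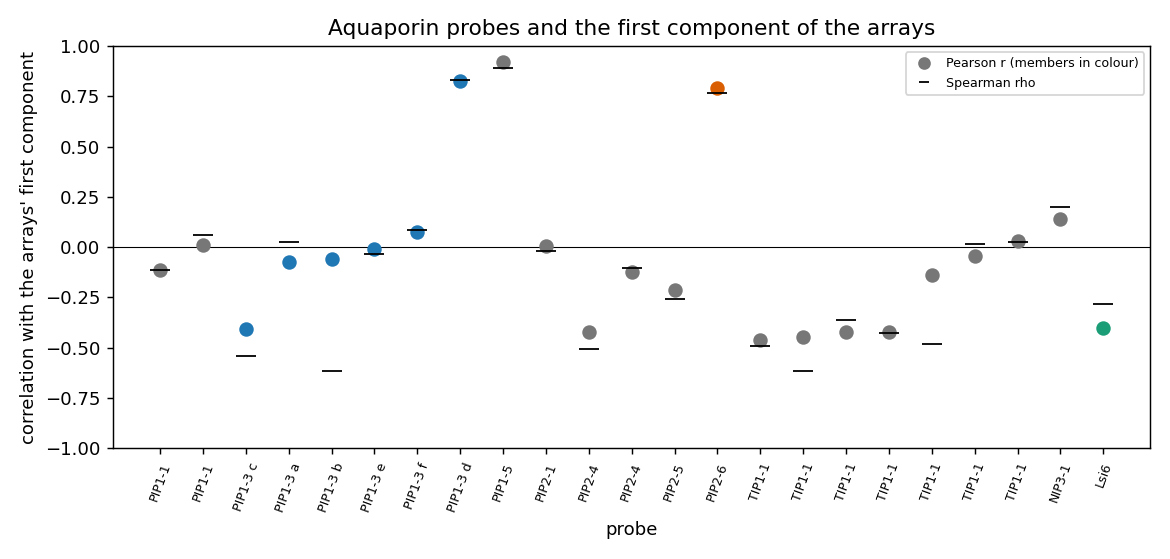
Correlation of each of the 23 aquaporin probes with the first component of the arrays, as Pearson r (points, members in colour) and Spearman rho (bars), probes ordered by gene. PIP1-5 (0.919), PIP1-3 d (0.826) and PIP2-6 (0.789) stand above 0.75, and Lsi6 is at -0.403.

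The table held 15 further aquaporin probes of 7 genes, of which 9 had a spread of at least 1, with a median of 1.18 and a range from 0.82 to 2.30. Their median was close to the 1.17 of all probes with 1 gene. Among PIP1 genes, the 2 probes of LOC542434 (PIP1-1) had 0.88 and 0.96, and LOC542014 (PIP1-5) had 2.29. Among PIP2 genes, LOC541888 (PIP2-1) had 0.83, LOC541890 (PIP2-4) 1.36 and 1.66, and LOC542619 (PIP2-5) 2.23. The 7 probes of LOC541675 (TIP1-1), a water channel of the vacuolar membrane, ran from 0.82 to 1.44. LOC541885 (NIP3-1), of the same branch as Lsi6, had 2.30 but held a repeated value on 9 arrays, and had a spread of 0.54 over S1 to S15 and 2.69 over S16 to S27.

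Among the 15 further probes, that of PIP1-5 was the most like PIP1-3 d. Their correlation was 0.868 (rho = 0.820), and 0.492 after removal of the first component, which PIP1-5 followed at 0.919. The values of PIP1-5 ran from -1.55 on S15 to 2.10 on S22. With PIP2-6, PIP1-5 had r = 0.718, which became -0.0316 after removal of the component. The other PIP2 probes did not follow PIP2-6, with r of -0.401 and -0.223 for PIP2-4, -0.0910 for PIP2-5 and 0.150 for PIP2-1. The 7 probes of TIP1-1 ran from -0.663 to 0.159 with PIP2-6. The TIP1-1 probe at spot 10483 had r = 0.921 with PIP1-3 b, which was 0.215 without S27, where it stood at -5.33 beside the -13.95 of b.

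By subgroup, aquaporin probes of different genes showed no shared direction. The median r was 0.0518 over 45 pairs of a PIP1 with a PIP2 probe, of which 25 were above 0. It was -0.0479 over 20 pairs within PIP1 and -0.104 over 9 pairs within PIP2. Lsi6 had a median of 0.0945 over 9 pairs with PIP1 probes and 0.0495 over 5 with PIP2 probes, and its value with NIP3-1 was -0.0523. These medians sat near the 0.00933 of all pairs of probes of different genes.

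**Figure D5:**
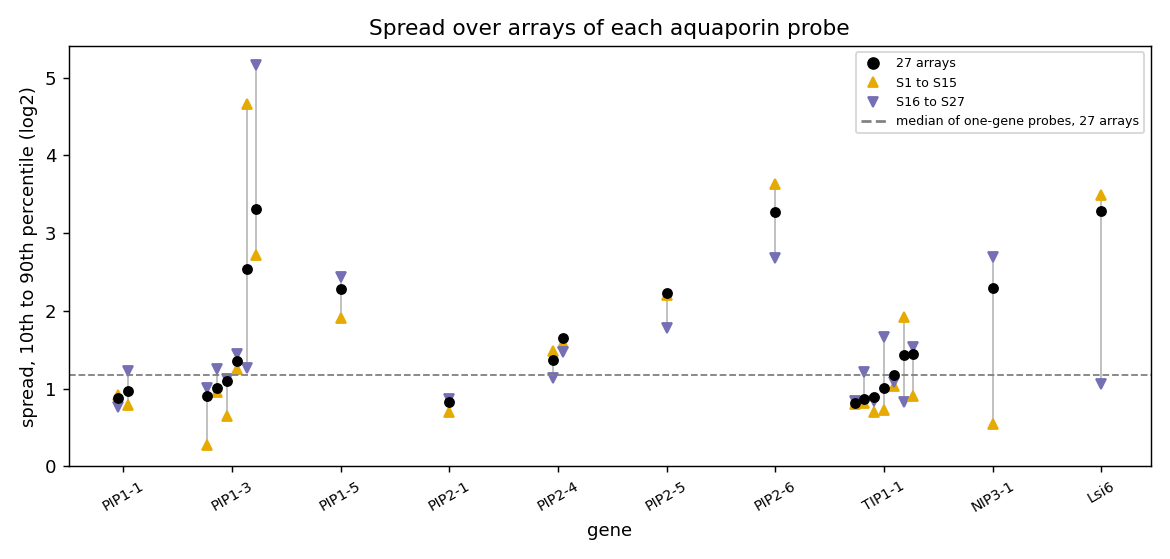
Spread of each of the 23 aquaporin probes by gene (90th minus 10th percentile of the log2 ratio minus the array's median), over 27 arrays (circles), S1 to S15 (upward triangles) and S16 to S27 (downward triangles), with the median of 1.17 of probes with 1 gene as a dashed line. PIP1-3 d (3.31), Lsi6 (3.29) and PIP2-6 (3.27) are the widest over 27 arrays, and Lsi6 is at 1.06 for S16 to S27.

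Membrane proton pumps and a potassium channel, which with aquaporins govern ion and water uptake by cells, had 6 probes of 5 genes with a median spread of 1.20, and 5 reached 1. The plasma membrane proton pumps LOC542048 (mha2) and LOC542052 (mha4) had 1.74 and 1.15. The vacuolar proton-pumping pyrophosphatases LOC542328 (vpp1) and LOC542327 (vpp3) had 2.55 and 1.25. The potassium channel LOC542002 (ZMK2) had 1.10 and 0.97. With the first component, the 6 probes showed no common direction. The highest r was that of mha2, at 0.710, and vpp1 had 0.431. The others were below 0, with -0.0679 for vpp3, -0.158 and -0.175 for ZMK2 and -0.344 for mha4. The share of all probes that reached the value of mha2 was not counted, so nothing is read from it.

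The genes most like each member were named by their Pearson correlation over the 27 arrays, as a description. For PIP2-6 they were LOC100037813 (0.793), LOC541842 (gst31, a glutathione transferase, 0.790), LOC100125640 (GRF2, a 14-3-3 protein, 0.765), LOC542704 (ohp1, a bZIP transcription factor, 0.755) and LOC542128 (yab14, of the YABBY family, 0.753). All 5 stayed the most like without S27. The most opposed were LOC778431 (-0.761) and the cellulose synthase genes LOC542564 (CesA-2, -0.758) and LOC541802 (CesA-1, -0.724).

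For Lsi6 the most like genes were LOC732817 (FEN-1, a flap endonuclease, 0.877), LOC100037775 (0.849), LOC542468 (ocl1, a homeodomain factor of the outer cell layer, 0.822), LOC541821 (hir3, 0.766) and LOC541968 (GP, 0.738). Without S27 these values were 0.727, 0.734, 0.584, 0.365 and 0.563, and 2 of the 5 stayed among the first 5. The most opposed were IPP (-0.756), LOC542405 (MFS18, -0.579) and LOC541834 (gst19, -0.565), and without S27 they were -0.288, -0.298 and -0.433.

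For the profile of PIP1-3 the most like genes were LOC732723 (Rbl1, of the retinoblastoma family, 0.690), LOC732788 (DREB2A, or DBP1a, a transcription factor of drought response, 0.664), LOC542512 (EMF-like, 0.659), LOC542529 (rps6, a ribosomal protein, 0.655) and hir3 (0.647). Without S27 rps6 had 0.583, and the others lay between -0.304 and 0.322. The most opposed were LOC542562 (GRP, -0.704), IPP (-0.701) and LOC541858 (kin4, -0.700), with -0.300, -0.135 and -0.265 without S27. The likeness of each of these genes to the PIP1-3 profile was thus lower without S27, least so for rps6. Within S1 to S15, a set without S27, r was 0.544 for DREB2A, 0.504 for rps6 and 0.375 for hir3. It was 0.197 for Rbl1 and -0.306 for EMF-like there.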

How the data were processed

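The deposited values are 1 natural log ratio of the channels per spot and array. The unit was inferred: the scanner software, background correction, normalization and numerator channel are not stated in the labels or the file. In 106 pairs, repeated values of the same array differed by 2 ln k for a whole k up to 10 (3.56 pairs at shifted distances), and the base 2 form matched 3. This does not settle a constant multiple. The values were converted to log2 and each array was centred on its median. Of 19200 spots, 897 were empty. All 8 member probes had values on all 27 arrays.

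Genes came from the platform's table, with synonyms from RefSeq on Zm-B73-REFERENCE-NAM-5.0, which held all 3 member genes. The members, lists and alternatives were chosen with earlier results of these data known. Named genes were all members, all other aquaporins, and for each member the 5 most and 3 least correlated genes among those with a probe at the repeated value on at most 5 arrays. No group, and so no test, could be formed, and arrays are not replicates. No signal over background was used, and the number of arrays limits the precision. Python 3.11.15, numpy 2.4.6 and pandas 2.3.3 were used, and the spread and correlation functions were tested on simulated data. Alternatives were block centring, array scaling, repeated values as missing, other measures and subsets of arrays.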

Additional observations from a re-analysis of the deposited data

How the results depend on the processing

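The number of member probes with a spread of at least 1, 7 of 8, was 3 with the interquartile range and 4 if the deposited values were already log2, which are smaller measures by construction, and leaving out single arrays gave 6 to 7. It was 8 with repeated values missing or over S16 to S27, and 5 over S1 to S15. For the other aquaporins the interquartile range gave a median of 0.60 and 3 probes. Agreement within PIP1-3 was -0.0670 by Spearman ranks, and from -0.133 to -0.0826 when single arrays were left out. The correlation of the PIP1-3 and PIP2-6 profiles was -0.593 within S1 to S15, 0.0335 as a mean over probe pairs, 0.525 with the widest probes, 0.117 with the first component removed, and from -0.200 to 0.00607 (without S19) when single arrays were left out. That of PIP1-3 and Lsi6 was -0.215 by Spearman ranks, -0.188 with the widest probes, -0.115 without S23 and S27, and from -0.181 (without S27) to 0.605 (without S6) when single arrays were left out. That of PIP2-6 and Lsi6 was -0.711 within S1 to S15, -0.162 within S16 to S27, -0.141 without S6 and S15, and from -0.626 to -0.305 when single arrays were left out. The correlation of PIP1-3 d with PIP2-6 was -0.365 with the first component removed, an alternative chosen after seeing the data, and from 0.455 to 0.597 when single arrays were left out. Of the 5 most like genes, Spearman ranks, S1 to S15 and S16 to S27 kept 1, 0 and 2 for PIP1-3, 3, 2 and 3 for PIP2-6, and 3, 0 and 3 for Lsi6. The cause of these changes was not tested, and leaving out a named array shows only that a value depended on it. No paired analysis was possible because the arrays have no groups.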
